A study of Mus musculus with 8 samples.

Results

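The genes described here were 9 collagens that build fibrils and microfibrils, chosen by gene name from the 53465 genes of a count table: *Col1a1*, *Col1a2*, *Col3a1*, *Col5a1*, *Col5a2*, *Col6a1*, *Col6a2*, *Col6a3* and *Col12a1*. RNA was sequenced from 2 mouse pancreatic ductal adenocarcinoma (PDAC) lines, B73 and B87, each of which went through 4 conditions, giving 8 libraries and 1 library per line in every group. Both lines came from primary pancreatic tumors of KC-shSmad4 mice, carried, among other alleles, Ptf1a-Cre/+, RIK and CHC, with a GFP-linked miR30 shRNA against *Smad4*, on a mixed C57BL/6J and 129 background, and were grown on plates coated with collagen. Smad4-off cells stayed on doxycycline (Dox), which drives the shRNA, and Smad4-on cells had been without Dox for 5 days before they were plated. Treatment began 24 h after plating. Each state was treated for 24 h with 100 pM TGFβ1 or with 2.5 µM of SB505124, a small molecule that blocks the kinase of the TGFβ type I receptor. The Cre is active in the pancreatic epithelium, and on that ground the lines were taken as tumor epithelium in culture, which was not tested here. Each line stands for a single tumor. CHC is a homing cassette placed at the *Col1a1* locus, so a *Col1a1* allele of all 8 libraries carried the Dox-driven shRNA. For *Col1a1*, transcription switched by Dox at its own locus and the *Smad4* state cannot be told apart in these libraries. No control shRNA was analysed here, so for every gene an effect of Dox and one of *Smad4* cannot be told apart.

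Collagens are secreted as trimers. Types I, III and V are fibrillar: *Col1a1* and *Col1a2* encode the chains of type I collagen, the main fibril protein of bone, tendon and scar, *Col3a1* encodes the single chain of type III, and *Col5a1* and *Col5a2* encode chains of type V, which starts fibrils and limits their width. Type VI, with chains from *Col6a1*, *Col6a2* and *Col6a3*, forms beaded microfilaments around cells, and type XII, from *Col12a1*, is a fibril-associated collagen that decorates fibrils under load. In pancreatic tumors most fibrillar collagen is laid down by stellate cells and other fibroblasts, and TGFβ is a classical inducer of collagen transcription in those cells.

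Total counts per library were 18389235 to 23440550, and 3 counts, the smallest level taken as detected, corresponded to 0.125 to 0.162 CPM. CPM stands for counts per library total, scaled with TMM factors to a shared size. *Smad4* mRNA was at 33.7 to 35.5 CPM in the 4 Smad4-off libraries and at 97.4 to 117 CPM in the 4 Smad4-on libraries. Of 10 fibroblast and stellate cell markers, 8 were under 1 CPM in every library, *Lum* was at 0 counts in all of them and *Dcn* reached 0.15 CPM at most. The summed level of that list was 0.919 to 2.40 CPM in B73 and 18.1 to 34.0 CPM in B87, most of it *Pdgfrb* and *Pdgfra*. The 8 epithelial markers summed to 3947 to 6209 CPM in B73 and to 1222 to 2109 CPM in B87, with *Krt8* and *Krt18* abundant and *Epcam* at 2.11 CPM or less. *Vim*, a mesenchymal filament gene, was at 3124 to 5319 CPM. In bulk RNA, fewer cells of a type and less RNA per cell cannot be told apart.

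The lines held different collagens. Type I was the clearest case. In B73, *Col1a1* was at 0.349 CPM in Smad4-off and 0.594 CPM in Smad4-on cells under SB505124, and at 2.19 and 5.10 CPM under TGFβ1. In B87 the same conditions gave 25.9, 119, 161 and 627 CPM. Every B87 value lay above every B73 value, and within each line the level climbed in the same order of conditions. *Col1a2*, its partner chain, was low in B73 (36 to 59 counts) and near the limit of detection in B87 (0 to 5 counts): 1.80, 2.49, 2.01 and 3.01 CPM in B73, in the same order, and 0.220, 0.0832, 0 and 0.255 CPM in B87. The B87 library at 0 (Smad4 off, TGFβ1) allows up to 0.149 CPM.

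**Figure D1:**
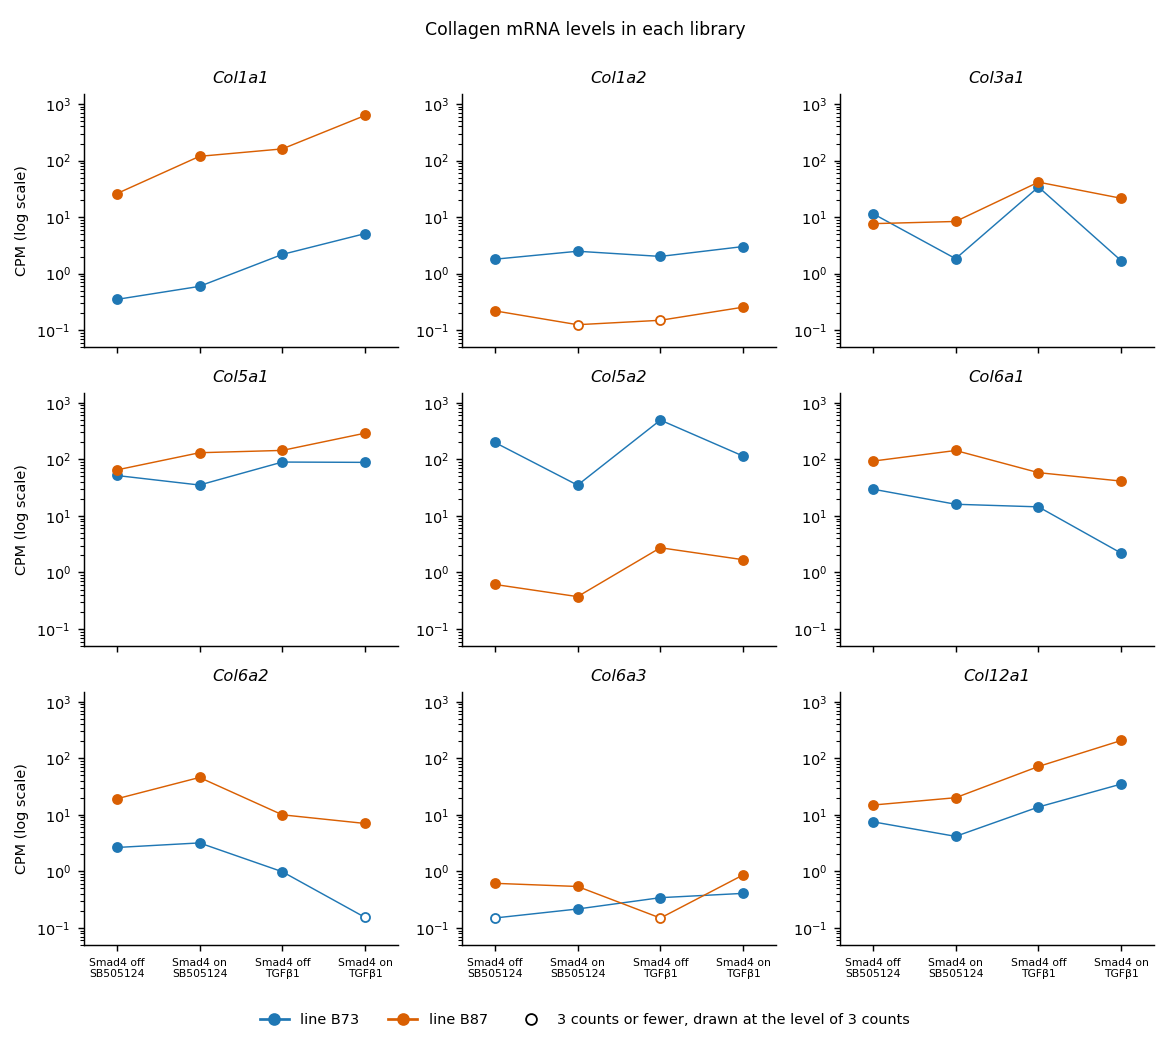
CPM on a log axis (vertical) of each collagen in the 4 conditions (horizontal), with blue points for line B73, orange points for line B87 and lines joining the libraries of a line. *Col1a1* rose from 25.9 to 627 CPM across the B87 libraries, whereas *Col5a2* was at 35.1 to 497 CPM in B73 and at 0.374 to 2.74 CPM in B87.

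Type V also differed between the lines, mostly in its second chain. *Col5a2* was at 200, 35.1, 497 and 114 CPM in B73 (Smad4 off and on under SB505124, then off and on under TGFβ1) and at only 0.615, 0.374, 2.74 and 1.68 CPM in B87. *Col5a1* was at 52.0, 35.2, 89.8 and 88.7 CPM in B73 and at 65.1, 131, 144 and 291 CPM in B87. Of the 9 collagens, *Col5a1*, *Col6a1* and *Col12a1* were above 2 CPM in all 8 libraries. *Col3a1* was at 11.5, 1.84, 34.0 and 1.68 CPM in B73 and at 7.64, 8.36, 41.5 and 21.5 CPM in B87, the highest level in both lines being that of Smad4-off cells under TGFβ1.

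Among the type VI chains, *Col6a1* was at 29.8, 16.1, 14.5 and 2.19 CPM in B73 and at 93.3, 144, 58.3 and 41.3 CPM in B87. *Col6a2* followed at lower levels, with 2.65, 3.19, 0.986 and 0.153 CPM in B73 and 19.2, 45.8, 10.0 and 7.04 CPM in B87. In both lines both chains were lower under TGFβ1 than under SB505124 in either *Smad4* state. *Col6a3*, the third chain, was scarcely detected, between 1 and 17 counts per library (0.0499 to 0.867 CPM). *Col12a1* was at 7.54, 4.16, 13.8 and 35.1 CPM in B73 and at 14.9, 20.1, 71.7 and 207 CPM in B87, so both Smad4-on libraries under TGFβ1 were the highest of their line.

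Levels of different genes were compared as CPM per kb of exon length, with the lengths in the deposited table. The 9 genes together gave 36.0, 12.6, 70.7 and 26.4 CPM per kb in B73 and 37.1, 74.2, 65.2 and 156 CPM per kb in B87. With Smad4 on, summed collagen was therefore lower in both B73 pairs and higher in both B87 pairs, a description with 1 library in each cell. In B73, *Col5a2* was the first-ranked gene in 3 libraries, with 45.1% to 73.3% of the sum, and *Col5a1* led in Smad4-on cells under SB505124 (32.8%, against 29.1% for *Col6a1* and 28.9% for *Col5a2*). In B87, *Col6a1* led under SB505124 with 57.4% (Smad4 off) and 44.3% (Smad4 on), and *Col1a1* led under TGFβ1 with 37.5% and 61.2%. *Col1a2*, *Col6a3* and, outside the SB505124 libraries, *Col6a2* each gave under 2% of the sum in every library. With 1 library per line and condition, neighbours in these orders have no replicate error of their own. The shares and orders also depend on the lengths used. With the longest transcripts (6625 bases for *Col5a2*, 8406 for *Col5a1* and 4100 for *Col6a1*), *Col5a2* would also lead in B73 Smad4-on cells under SB505124.

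**Figure D2:**
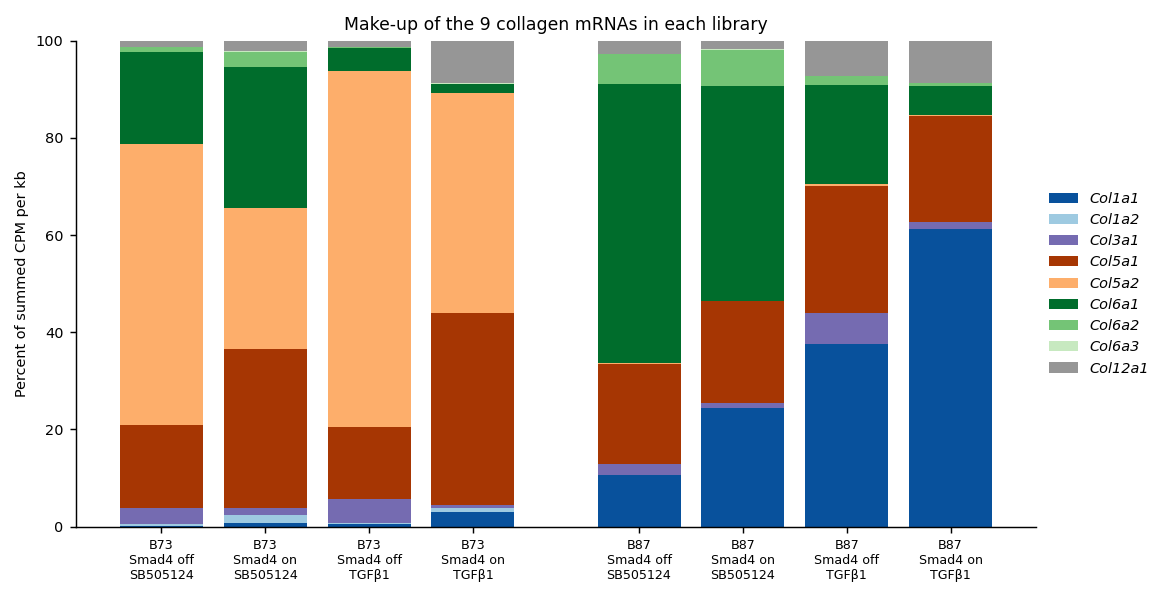
Share of each collagen (percent, vertical) in the summed CPM per kb of the 9 genes, with 1 bar per library, the B73 libraries on the left and the B87 libraries on the right. *Col5a2* holds 28.9% to 73.3% of the B73 bars and at most 0.44% of the B87 bars, where *Col1a1* goes from 10.6% to 61.2%.

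The chains that share a trimer were not balanced. The ratio of *Col1a1* to *Col1a2* per kb was 0.368 and 0.453 in the SB505124 libraries of B73 (Smad4 off and on) and 2.05 and 3.21 in its TGFβ1 libraries. In B87 it was 223 in Smad4-off cells under SB505124 and 4660 in Smad4-on cells under TGFβ1, with 5 counts of *Col1a2* behind each. In the other B87 libraries *Col1a2* had 2 counts (Smad4 on, SB505124) and 0 counts (Smad4 off, TGFβ1). Against a floor of 3 counts, *Col1a1* was at least 2035-fold higher per kb in the library at 0. At the same floor the ratio was 1801 in the library at 2 counts, which is no bound, since counts were seen there. The *Col5a1* to *Col5a2* ratio per kb was 0.204 to 1.13 in the B73 libraries and 59.5 to 396 in those of B87. It was higher with Smad4 on in all 4 pairs of libraries that share a line and a treatment. The B87 ratios rest on few counts of *Col5a2*: 14 and 9 under SB505124 (Smad4 off and on) and 55 and 33 under TGFβ1. *Col6a1* exceeded *Col6a2* per kb in every library, by 5.96-fold to 27.9-fold, the ratio of the B73 Smad4-on library under TGFβ1 resting on 3 counts of *Col6a2*.

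The exon lengths used for these ratios and for the shares above were the union of the exons of all annotated transcripts. For *Col1a2* the union was 12426 bases and the longest transcript 5348 bases, and for *Col6a2* they were 8326 and 4912 bases. For *Col1a1* they were 6563 and 5930 bases. With the longest transcripts the ratios of a pair of chains would shift by the same factor in every library. *Col1a1* would then no longer exceed *Col1a2* per kb in B73 Smad4-off cells under TGFβ1 (51 and 47 counts).

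The 250 bases before the annotated start were read for genes with a RefSeq promoter entry (GRCm38.p6), which were 6 of the 9: *Col1a2*, *Col3a1*, *Col5a1*, *Col6a1*, *Col6a2* (with 2 starts) and *Col6a3*. *Col1a1*, *Col5a2* and *Col12a1* had no entry. Each window of 250 bases before to 50 bases after the start was searched on both strands for CAGACA, a SMAD-binding element, its palindrome GTCTAGAC, the GC-rich SMAD motif GGCGC, the AP-1 site TGANTCA and the TATA box TATAAA, overlapping matches counted each. Of 32851 RefSeq promoters, 21% held CAGACA, 0.213% GTCTAGAC, 36.9% GGCGC, 7.81% TGANTCA and 13.6% TATAAA. Shown 5′ to 3′ are the first starts of *Col5a1*, called higher with TGFβ1 in Smad4-on cells, of *Col6a1* and *Col6a2*, called lower there, and of *Col3a1* and *Col1a2*, which passed no test of TGFβ1, with every match in capitals.
Col5a1 (chr2:27886175-27886424, plus strand): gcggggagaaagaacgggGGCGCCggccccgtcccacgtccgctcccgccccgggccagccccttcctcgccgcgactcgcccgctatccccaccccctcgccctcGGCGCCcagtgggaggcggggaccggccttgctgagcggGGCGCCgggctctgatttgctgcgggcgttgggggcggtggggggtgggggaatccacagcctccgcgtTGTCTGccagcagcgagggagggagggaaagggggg
Col6a1 (chr10:76726045-76726294, minus strand): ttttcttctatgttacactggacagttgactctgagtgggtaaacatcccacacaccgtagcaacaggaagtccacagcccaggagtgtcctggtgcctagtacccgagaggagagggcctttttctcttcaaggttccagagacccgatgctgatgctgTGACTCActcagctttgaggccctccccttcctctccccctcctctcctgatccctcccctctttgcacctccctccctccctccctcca
Col6a2 (chr10:76623405-76623654, minus strand): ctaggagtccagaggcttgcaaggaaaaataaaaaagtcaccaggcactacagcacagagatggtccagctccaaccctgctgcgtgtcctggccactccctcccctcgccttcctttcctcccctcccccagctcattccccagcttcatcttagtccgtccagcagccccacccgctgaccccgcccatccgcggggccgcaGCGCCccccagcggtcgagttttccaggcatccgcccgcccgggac
Col3a1 (chr1:45311288-45311537, plus strand): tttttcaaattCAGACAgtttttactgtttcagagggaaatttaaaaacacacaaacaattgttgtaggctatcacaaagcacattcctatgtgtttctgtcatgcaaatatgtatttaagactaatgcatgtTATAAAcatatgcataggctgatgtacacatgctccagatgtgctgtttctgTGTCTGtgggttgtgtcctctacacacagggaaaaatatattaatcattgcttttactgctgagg
Col1a2 (chr6:4505368-4505617, plus strand): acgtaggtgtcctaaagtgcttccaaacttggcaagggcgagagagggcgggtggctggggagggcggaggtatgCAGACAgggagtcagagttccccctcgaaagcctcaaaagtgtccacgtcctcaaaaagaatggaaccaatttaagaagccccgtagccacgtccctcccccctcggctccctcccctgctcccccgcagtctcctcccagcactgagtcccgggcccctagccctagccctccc
The *Col5a1* window held 1 CAGACA match on the reverse strand, 36 bases before the start, and 7 matches of GGCGC, 6 of them in 3 overlapping pairs and 1 behind the start. *Col3a1* held CAGACA 239 and 65 bases before the start and TATAAA 117 bases before it. The *Col1a2* window had a single match, CAGACA at 175 bases. In *Col6a1* the only match was TGANTCA at 90 bases, and in the first *Col6a2* window it was GGCGC at 46 bases. The second *Col6a2* window and that of *Col6a3* had no match to any of the 5 motifs, and GTCTAGAC was in none of the 7 windows. A match is a string of letters and does not show binding.

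B87 was compared with B73 over all 4 conditions, with the line term of the model that gave every other test. Differential expression was tested with edgeR's quasi-likelihood F-test on 14301 genes with enough counts, in a model of the 4 groups and the line, and all 9 collagens passed the filter on low counts. A gene was called at a Benjamini-Hochberg adjusted p under 0.05, over all tested genes, with a change of more than 2-fold. Of the 9, 5 were called higher in B87, against 3.87% of all tested genes, and 2 were called lower, against 4.5%. *Col1a1* was higher in B87 by a log2 difference of 6.75 ± 0.19 (SE; adjusted p 1.08e-05 in edgeR). *Col5a2* was lower by a log2 difference of -7.21 ± 0.28 (adjusted p 2.5e-05 in edgeR), and *Col1a2* by -4.03 ± 0.47 (0.0017). *Col1a2* had 5, 2, 0 and 5 counts in the B87 libraries and passed the filter on low counts only through B73. Its call is therefore set aside, which leaves *Col5a2* as the collagen called lower, and the fitted value of *Col1a2* is no bound. *Col6a2* (3.56 ± 0.29, adjusted p 0.000385 in edgeR), *Col6a1* (2.60 ± 0.37, 0.00403), *Col12a1* (2.10 ± 0.25, 0.00177) and *Col5a1* (1.16 ± 0.26, 0.0245) were higher in B87. *Col3a1* (1.12 ± 0.63) and *Col6a3* (0.99 ± 0.62) were not called, with adjusted p-values of 0.280 and 0.339 in edgeR. With no filter on low counts *Col3a1* was called (1.12, adjusted p 0.0296 in edgeR). The call of *Col5a1* was lost without any single one of the 4 Smad4-on libraries (0.92 to 0.96, adjusted p 0.0715 to 0.0747 in edgeR). These p-values describe the spread between libraries of these lines, not between tumors. The fibroblast list, summed at 0.919 to 2.40 CPM in B73 and 18.1 to 34.0 CPM in B87, moved with this difference, and its part in the result was not tested.

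**Figure D3:**
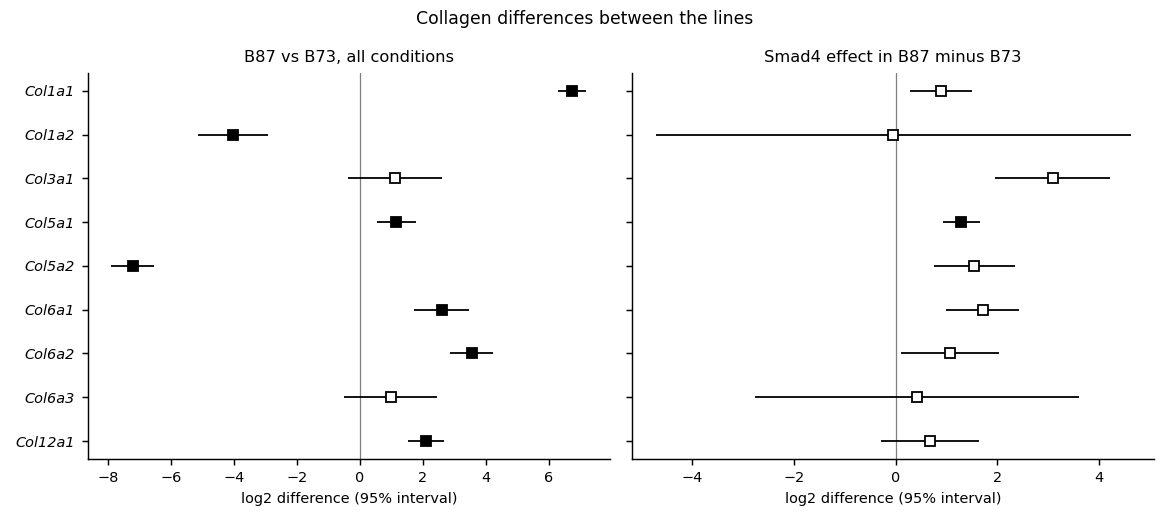
Log2 differences between the lines (horizontal, with 95% intervals from the model) for each collagen (vertical): left, B87 against B73 over all conditions, and right, the *Smad4* effect in B87 minus that in B73. Filled squares were called. The *Col1a1* difference of 6.75 and the *Col5a2* difference of -7.21 lie at the ends of the left panel, and 8 of the 9 points of the right panel are above 0, with *Col5a1* (1.29) the only one called.

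TGFβ1 was compared with SB505124 in Smad4-on cells. No untreated cells were analysed here, so in this comparison and that in Smad4-off cells a rise with TGFβ1 and a fall with SB505124 cannot be told apart. Of the 9 collagens, 4 rose, against 5.62% of tested genes, and 2 fell, against 8.31%. The collagens' median log2 fold change was 1.02 and that of all tested genes -0.02. *Col12a1* rose 9.32-fold, by a log2 fold change of 3.22 ± 0.35 (SE; adjusted p 0.000865 in edgeR), with 3.05 in B73 and 3.36 in B87. *Col1a1* rose 5.39-fold, by 2.43 ± 0.22 (adjusted p 0.000409 in edgeR), with 2.91 and 2.40 in the lines. Both type V chains rose as well, *Col5a2* by 1.85 ± 0.37 (adjusted p 0.00971 in edgeR) and *Col5a1* by 1.21 ± 0.36 (0.0411). The type VI chains went the other way: *Col6a2* fell by a log2 fold change of -2.84 ± 0.40 (adjusted p 0.00233 in edgeR) and *Col6a1* by -2.0 ± 0.51 (0.0238), in both lines. In B73 *Col6a2* went from 59 to 3 counts, so the size of its fall there is uncertain. *Col3a1* (1.02 ± 0.86), *Col1a2* (0.49 ± 0.57) and *Col6a3* (0.74 ± 0.80) passed no test. The calls of *Col12a1*, *Col1a1* and *Col6a2* stood without any single library. That of *Col5a1* was lost without the B73 SB505124 library (0.82, adjusted p 0.195 in edgeR) or the B87 TGFβ1 library of Smad4-on cells (0.77, 0.259). *Col5a2* was lost without the B73 SB505124 library (1.14, 0.447), and *Col6a1* without the B73 TGFβ1 library (-1.46, 0.0552) or the B87 SB505124 library (-1.52, 0.195). DESeq2 with the line did not call *Col5a1* (1.23, adjusted p 0.0582). With no replicate block, that is without the line in the model, 0 of the 9 were called (adjusted p 0.134 to 0.757 in edgeR for these 6 genes).

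In Smad4-off cells 3 of the 9 collagens were higher under TGFβ1, against 3.11% of tested genes, and 0 were lower, against 2.82%. Their median log2 fold change was 0.94, against -0.02 over all tested genes. *Col1a1* rose by a log2 fold change of 2.73 ± 0.25 (SE; adjusted p 0.00154 in edgeR), *Col12a1* by 1.6 ± 0.35 (0.0282) and *Col5a2* by 1.38 ± 0.31 (0.0317), each in both lines. *Col3a1* had a log2 fold change of 1.88 ± 0.81 and *Col5a1* one of 0.94 ± 0.37, and neither passed (adjusted p 0.183 and 0.144 in edgeR). *Col6a2* and *Col6a1* stood at -1.16 ± 0.39 and -0.90 ± 0.49 (adjusted p 0.101 and 0.281 in edgeR). Of the negative ones 0 were called by edgeR or DESeq2, and 1 (*Col6a2*, p 0.0207) had an unadjusted p under 0.05. Without the B73 or the B87 TGFβ1 library of Smad4-on cells *Col6a2* was called (-1.13 in both, adjusted p 0.0387 and 0.0389 in edgeR). Without the B87 SB505124 library of Smad4-off cells 0 of the 3 rises were called: *Col1a1* was then at 2.17 (adjusted p 0.121 in edgeR), *Col5a2* at 1.18 (0.0647) and *Col12a1*, at 0.85 and 0.0346, was under 2-fold. Leaving out the B73 or the B87 TGFβ1 library of Smad4-off cells ended the calls of *Col5a2* (1.00 and 1.51, adjusted p 0.450 and 0.0903 in edgeR) and *Col12a1* (1.78 and 1.39, 0.0785 and 0.183). DESeq2 with the line did not call *Col5a2* (1.59, adjusted p 0.0935). With no replicate block 0 of the 9 were called (adjusted p 0.487 to 0.887 in edgeR for these 3 genes).

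Whether TGFβ1 did more in one *Smad4* state than in the other was tested as the interaction, to which both comparisons above contribute. It called 0 of the 9 collagens, against 0.189% of tested genes, and at an unadjusted p under 0.05 there were 2, against 1493 of 14301 tested genes. These were *Col12a1*, with a log2 difference of 1.62 ± 0.48 (SE; adjusted p 0.300 in edgeR), and *Col6a2*, with -1.68 ± 0.55 (0.328). DESeq2 with the line called 1, *Col12a1* (adjusted p 0.0206), and without the B87 SB505124 library of Smad4-off cells edgeR called it too (2.40, adjusted p 0.0295). For *Col1a1* the log2 difference was -0.30, with a 95% interval of -1.06 to 0.45.

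Restoration of *Smad4* was then compared within TGFβ1, the setting in which its transcriptional complex is engaged. Here 2 of the 9 collagens were higher in Smad4-on cells, against 1.31% of tested genes, and 1 was lower, against 1.8%. The median log2 fold change was 0.51 for the collagens and -0.01 for all tested genes. *Col1a1* was 3.42-fold higher, a log2 fold change of 1.78 ± 0.21 (SE; adjusted p 0.00656 in edgeR), with 1.19 in B73 and 1.97 in B87. *Col12a1* was 2.73-fold higher, 1.45 ± 0.32 (adjusted p 0.0437 in edgeR), with 1.34 and 1.53 in the lines. *Col5a2* was lower, by -1.86 ± 0.34 (adjusted p 0.0251 in edgeR), with 114 against 497 CPM in B73 and 1.68 against 2.74 CPM in B87. *Col3a1* had the most negative estimate, -2.11 ± 0.84, and did not pass (adjusted p 0.190 in edgeR), with 1.68 against 34.0 CPM in B73 and 21.5 against 41.5 CPM in B87. *Col6a1* (-1.21 ± 0.52) and *Col6a2* (-0.82 ± 0.42) were negative in both lines and did not pass either (adjusted p 0.216 and 0.290 in edgeR). *Col5a1* was at 0.51 ± 0.36, *Col1a2* at 0.87 ± 0.58 and *Col6a3* at 1.33 ± 0.87.

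These 3 calls rested on few libraries. *Col1a1* was not called without the B87 library of Smad4-off (1.17, adjusted p 0.124 in edgeR) or of Smad4-on cells (1.51, 0.0901) under TGFβ1. *Col5a2* was not called without the B73 Smad4-off (-1.40, adjusted p 0.440 in edgeR), the B73 Smad4-on (-0.62, 0.502) or the B87 Smad4-off (-1.95, 0.0694) library under TGFβ1, nor by DESeq2 with the line (-1.38, adjusted p 0.201). *Col12a1* lost its call without any of the 4 TGFβ1 libraries (1.08 to 1.73, adjusted p 0.0705 to 0.272 in edgeR) and without either Smad4-on library under SB505124 (1.45, 0.0621 and 0.0625). With no replicate block 0 of the 9 were called (adjusted p 0.650 to 0.841 in edgeR for the 3 genes). For *Col1a1*, the Dox-driven cassette at its locus changes with the same comparison.

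**Figure D4:**
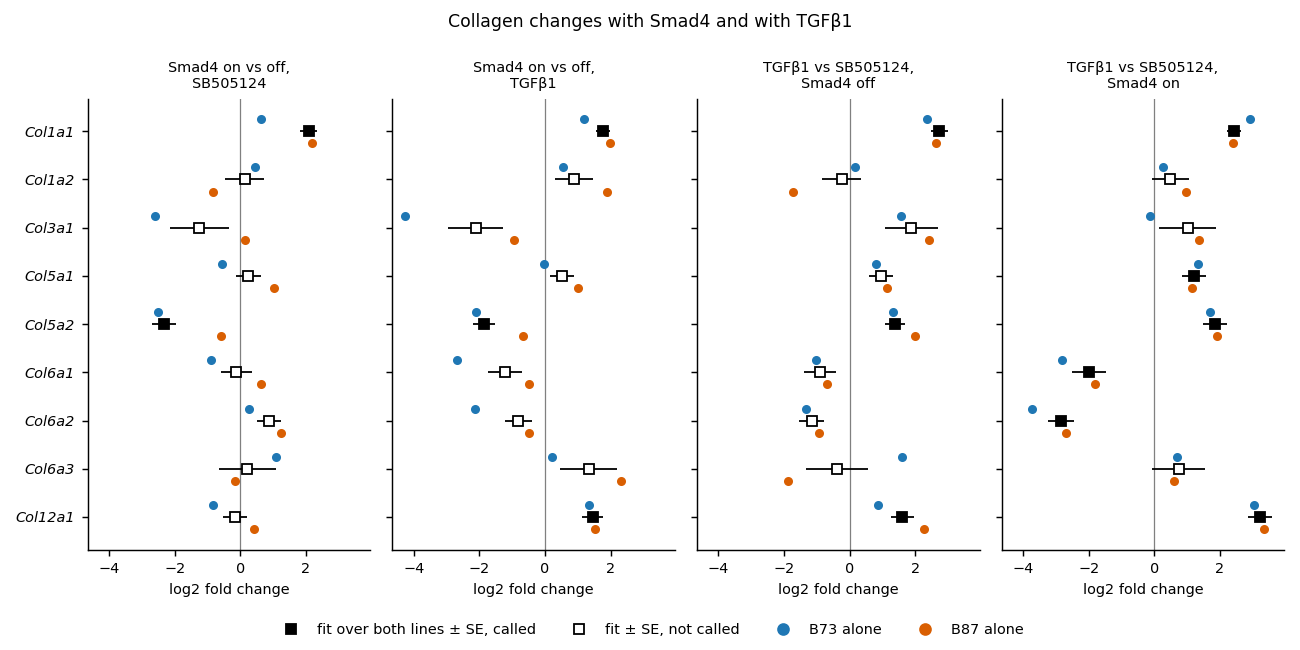
Log2 fold change (horizontal) of each collagen (vertical) in the 4 comparisons: squares with bars give the edgeR estimate over both lines ± SE, filled where called, and the blue and orange points give B73 and B87 alone. *Col1a1* is filled in all 4 panels (1.78 to 2.73) and so is *Col5a2*, which is negative for *Smad4* (-2.33 and -1.86) and positive for TGFβ1 (1.38 and 1.85). DESeq2 called *Col5a2* in 1 of the 4 comparisons, TGFβ1 in Smad4-on cells (adjusted p 0.0154).

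Under SB505124, where receptor signaling is blocked, 1 of the 9 was higher in Smad4-on cells, against 0.636% of tested genes, and 1 was lower, against 0.455%. The collagens' median was 0.13, against 0.00 over all tested genes. *Col1a1* was higher by a log2 fold change of 2.08 ± 0.25 (SE; adjusted p 0.0136 in edgeR), but by 2.19 in B87 and 0.63 in B73, where it had 7 and 11 counts. *Col5a2* was lower by -2.33 ± 0.36 (adjusted p 0.0323 in edgeR), with 35.1 against 200 CPM in B73 and 0.374 against 0.615 CPM in B87. No other collagen passed. *Col6a2* came next, with 0.87 ± 0.36 (p 0.0470, adjusted p 0.387 in edgeR), and *Col12a1*, called under TGFβ1, was at -0.17 ± 0.37 here. *Col1a1* lost its call without either B87 library under SB505124 (1.51 and 1.16, adjusted p 0.437 and 0.495 in edgeR). *Col5a2* lost it without the B73 Smad4-off (-1.05, adjusted p 0.689 in edgeR), B73 Smad4-on (-1.63, 0.807) or B87 Smad4-on (-2.38, 0.0619) library under SB505124 and without either Smad4-off library under TGFβ1 (-2.25 and -2.28, 0.0721 and 0.0581), and DESeq2 with the line did not call it (-1.83, adjusted p 0.151). With no replicate block 0 of the 9 were called (adjusted p 1.00 in edgeR for both genes).

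The *Smad4* effect was also tested for a difference between the lines, averaged over treatments. It called 1 of the 9, against 0.392% of tested genes. *Col5a1* had a log2 fold change with *Smad4* of -0.29 in B73 and 1.01 in B87, a difference of 1.29 ± 0.15 (SE; adjusted p 0.0329 in edgeR). Its levels were 35.2 CPM (Smad4 on) against 52.0 CPM (Smad4 off) under SB505124 in B73 and 131 against 65.1 CPM in B87. Under TGFβ1 they were 88.7 against 89.8 CPM in B73 and 291 against 144 CPM in B87. The estimate was positive for 8 of the 9 collagens, with a median of 1.06 against -0.01 over all tested genes, and 6 of the 9 had an unadjusted p under 0.05, against 1408 of 14301 tested genes. *Col3a1* (3.08 ± 0.48, adjusted p 0.0634 in edgeR), *Col6a1* (1.71 ± 0.30, 0.0962) and *Col5a2* (1.55 ± 0.34, 0.154) stood next. *Col5a1* stayed called without any single library (1.13 to 1.48). With a single library left out, the estimates were 2.27 to 3.78 for *Col3a1* and 1.34 to 2.43 for *Col6a1*. DESeq2 with the line called 4 of the 9, and the share of all tested genes called in that fit was not counted. The 9 estimates share the same libraries and are no independent repeats of each other. The TGFβ1 effect, tested in the same way, differed between the lines for 0 of the 9 collagens and for 0 of 14301 genes (edgeR; background 0%). At an unadjusted p under 0.05 there were 1198 genes and 0 collagens.

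Other genes of collagen fibrils were taken from lists by role. Of all tested genes, 1.31% were called higher and 1.8% lower with *Smad4* under TGFβ1 (0.636% and 0.455% under SB505124). With TGFβ1 the shares were 5.62% and 8.31% in Smad4-on cells and 3.11% and 2.82% in Smad4-off cells. Of 4 tested fibrillar collagens outside the 9 (*Col2a1*, *Col5a3*, *Col11a1*, *Col11a2*, *Col24a1* and *Col27a1* were listed), 2 rose with *Smad4* under TGFβ1 and 3 rose with TGFβ1 in Smad4-on cells. *Col5a3*, the third type V chain, was at 2.87 and 2.79 CPM in the Smad4-off libraries under TGFβ1 (B73, B87) and at 63.4 and 29.6 CPM in the Smad4-on libraries. Its log2 fold change was 3.98 ± 0.39 (SE; adjusted p 0.0035 in edgeR). *Col27a1*, a short fibrillar collagen, went from 16.6 up to 83.8 CPM in line B73, and 8.47 CPM became 36.0 CPM in B87 (2.22 ± 0.27, adjusted p 0.007 in edgeR). *Col11a1*, of type XI, rose with TGFβ1 in Smad4-on cells by 4.03 ± 0.56 (adjusted p 0.0023 in edgeR). It went from 10 to 158 counts in B73 and from 0 to 15 counts in B87, so the size of this rise is uncertain. None of the 3 other type VI chains listed had enough counts to be tested. Of 9 other fibril-associated collagens listed, 8 were found in the table and 2 were tested, 0 of which were called by edgeR or had an unadjusted p under 0.05 for *Smad4* or TGFβ1.

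Of 18 tested genes of collagen folding and hydroxylation, 0 were called by edgeR for *Smad4* under either treatment. Under TGFβ1, 9 of them had an unadjusted p under 0.05 for *Smad4* and 6 an adjusted p under 0.05 in DESeq2 (5 and 1 under SB505124), among them *P4ha2*, named after its values were seen (0.83, adjusted p 0.00678 in edgeR, under 2-fold). An unadjusted p under 0.05 was also found for 3396 of 14301 tested genes under TGFβ1 and for 1809 under SB505124. In Smad4-on cells 4 of the list were higher and 1 was lower under TGFβ1. The named ones were *Creb3l1*, a transcription factor of secretory cells (2.21 ± 0.40), *Plod2*, a lysyl hydroxylase (1.70 ± 0.21), and *P4ha1*, a prolyl hydroxylase subunit (1.28 ± 0.15). In Smad4-off cells *Creb3l1* was the one gene of the list called with TGFβ1. Among 11 tested genes of propeptide cleavage and crosslinking, 4 rose and 1 fell with TGFβ1 in Smad4-on cells, and 4 rose in Smad4-off cells. *Lox*, a lysyl oxidase, rose by 4.46 ± 0.47 and 3.96 ± 0.55 in these states, and *Loxl2* by 2.80 ± 0.17 and 1.46 ± 0.17. Under SB505124 *Lox* had 12 and 7 counts in B73 and 1 and 0 in B87 (Smad4 on and off), so the sizes of its rises are uncertain. *Tll1*, a procollagen C-proteinase of the *Bmp1* family, was called in all 4 comparisons, with 3.56 ± 0.29 for *Smad4* under TGFβ1 and 2.09 ± 0.35 under SB505124. In B73 *Tll1* had 1 and 14 counts under SB505124 (Smad4 off and on) and 13 in Smad4-off cells under TGFβ1. The sizes of its changes are therefore uncertain. *Loxl1* was at 0.378 to 0.599 CPM in B73 and at 23.2 to 62.0 CPM in B87.

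Of 8 tested fibril-binding proteins, 3 rose and 2 fell with TGFβ1 in either *Smad4* state. *Tnc*, a matricellular protein, rose by 4.63 ± 0.28 in Smad4-on cells and was the single one that edgeR called higher with *Smad4* under TGFβ1 (2.32 ± 0.24, adjusted p 0.0039 in edgeR). In that comparison 2 of the 8 had an unadjusted p under 0.05 in edgeR, against 3396 of 14301 tested genes. An adjusted p under 0.05 in DESeq2 was found for 2 of the 8. *Tnxb* fell, from 3.99 to 16.3 CPM in the SB505124 libraries to 0.255 to 0.797 CPM in the TGFβ1 libraries. *Prelp* fell to 0.199 CPM or less in the TGFβ1 libraries. Among 10 tested receptors and uptake genes, *Itga1*, a collagen-binding integrin subunit, and *Antxr1* were lower with *Smad4* under TGFβ1 (-1.24 ± 0.20 and -1.06 ± 0.12). With TGFβ1 in Smad4-on cells 4 of the 10 rose, *Itga2* among them (3.20 ± 0.57), and 2 fell. *Mrc2*, an endocytic receptor for collagen, was at 0.0510 to 0.749 CPM in B73 and at 29.2 to 68.3 CPM in B87.

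**Figure D5:**
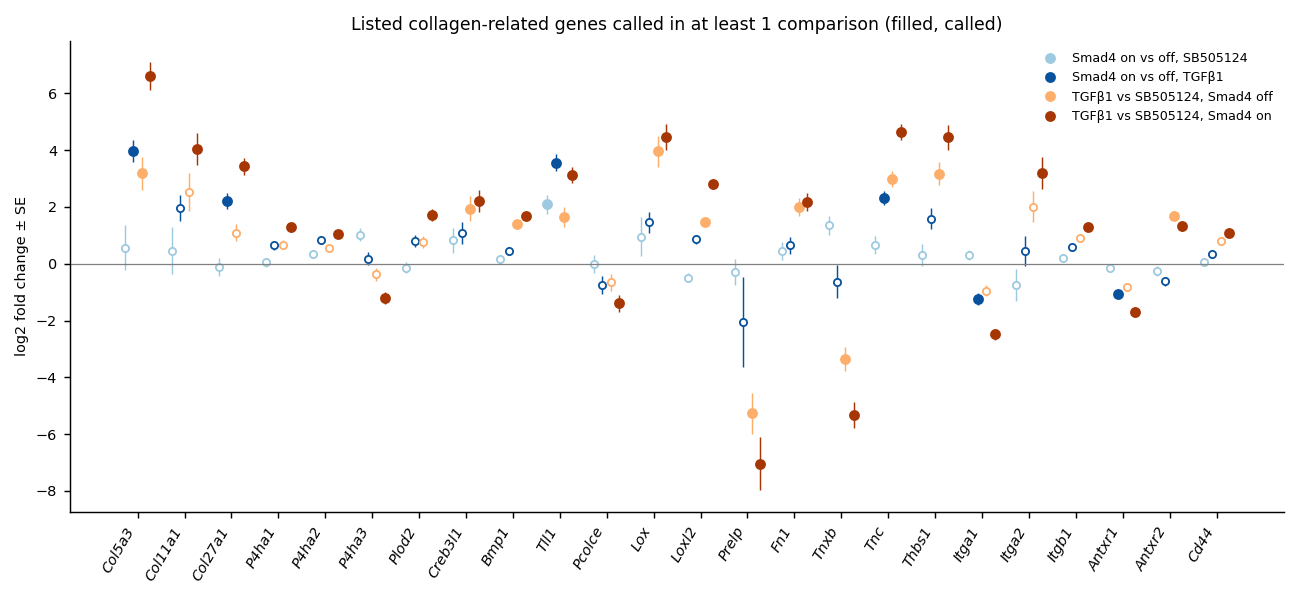
Log2 fold change ± SE (vertical) of the 24 listed collagen-related genes called in at least 1 of the 4 comparisons (horizontal), light and dark blue for *Smad4* under SB505124 and TGFβ1 and light and dark orange for TGFβ1 in Smad4-off and Smad4-on cells, filled where called. *Col5a3* reached 6.61 with TGFβ1 in Smad4-on cells, and *Tll1* is filled in all 4 comparisons. The size for *Col5a3* is uncertain, since its Smad4-on libraries under SB505124 had 4 counts (B73) and 15 counts (B87).

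The genes whose log2 CPM ran most like that of each collagen over the 8 libraries were ranked among 11100 genes. For *Col5a2* they were *Col4a1* (Pearson r 0.994) and *Col4a2* (0.991), the basement membrane collagen chains, and *Wbp2* (0.990). For *Col12a1* they were *P4ha1* (0.994), *Ptprg* and *Frmd6*, and *Serpinh1*, the collagen chaperone, was the second for *Col5a1* (0.983). *Bmp4* led for *Col6a2* (0.996) and *Tstd3* for *Col1a1* (0.991). The 8 points share 2 lines and 4 treatments, and the line difference carries much of these values.

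Position and sequence were read for limits. *Col3a1* (chr1:45311538-45349706, plus strand) and *Col5a2* (chr1:45374321-45503282, minus strand) lie 24.6 kb apart on GRCm38 with no annotated gene between them. *Col6a2* (chr10:76595762-76623630) and *Col6a1* (chr10:76708792-76726168), both on the minus strand, lie 85.2 kb apart with *Gm35608*, at 0 counts, between. The other genes lie at chr11:94936224-94953042 (*Col1a1*, plus), chr6:4504814-4541544 (*Col1a2*, plus), chr2:27886425-28039514 (*Col5a1*, plus), chr1:90765923-90843971 (*Col6a3*, minus) and chr9:79598991-79718831 (*Col12a1*, minus). *Col5a1* overlaps *Gm13372* and *2810430I11Rik* on the opposite strand, which had at most 44 and 11 counts in a library against 652 or more for *Col5a1*. At most 0.825% of the 75-base stretches of any of the 9 occur in transcripts of another gene.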

How the data were processed

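The authors made stranded poly(A) libraries from 8 cultures, sequenced 75 bp from one end, trimmed the reads with Trimmomatic 0.36, aligned these to GRCm38 (mm10) with STAR 2.5.3a and counted reads per gene with featureCounts 1.6.3 (versions from the submitters' processing notes). The deposited table holds raw counts per gene, and the strand and multi-mapping settings are not given in the sources used here. Nothing says that replicate cultures were made within a line, so p-values measure the spread between these libraries.

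Here, counts were tested with edgeR 4.0.16 in R 4.3.3 (TMM, filterByExpr, quasi-likelihood F-test, the 4 groups and the line as terms). Libraries are paired by the line in the sample titles. Deviations of a line from its group's mean correlated across genes at r 0.642 to 0.774 (median 0.758) over the 6 pairs of groups. A line-by-*Smad4* or line-by-treatment term was added for those tests. SEs are the log2 fold change over the square root of F, and fold changes per line use a prior count of 2. All 9 collagens were named, and from each list the called genes with the largest change (at most 3). The members, lists and motifs were chosen with earlier results of these data known. Alternatives were DESeq2 1.42.0, its size factors, other filters, a test against the 2-fold threshold, subsets of the libraries and leaving out each library or line. The scripts were tested on simulated data. Floors of 3 counts cover counting error only, since PCR copies cannot be told apart. An allele of the model and a gene checked as a TGFβ target are not reported here.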

Additional observations from a re-analysis of the deposited data

Results flagged for a closer look

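The *Smad4* effect differed between the lines for *Col5a1*, with a log2 difference of B87 minus B73 of 1.294 (SE 0.155, edgeR adjusted p 0.0329). The same test of the difference passed for *Bgn*, a small proteoglycan of fibrils (1.645, SE 0.150, edgeR adjusted p 0.0187). It also passed for *Loxl3*, a lysyl oxidase family member (1.256, SE 0.163, 0.0417), and for *Tgfbi*, a secreted protein (4.223, SE 0.462, 0.0329). With Smad4 off and on under TGFβ1, *Tgfbi* had 40 and 1 counts in B73 and 7 and 7 in B87. The size of its difference is therefore uncertain. Under SB505124 it had 88 and 27 counts in B73 and 33 and 183 in B87. Its level was thus lower under TGFβ1 than under SB505124 in either *Smad4* state of both lines. The interaction of *Smad4* and TGFβ1 passed for *Ctgf*, whose rise with TGFβ1 was larger with Smad4 on, by a log2 difference of 1.752 (SE 0.196, edgeR adjusted p 0.0387). Each rests on 1 library per line and condition.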

How the results depend on the processing

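Of the 14 calls of collagens in the 4 comparisons of *Smad4* and TGFβ1, all 14 were kept with DESeq2 size factors and with no filter on low counts, 12 with only the 4 libraries compared, 10 with DESeq2 and the line (losing *Col5a2* in 3 comparisons and *Col5a1* in 1), 4 in the test against the 2-fold threshold, 1 with DESeq2 and no replicate block and 0 with edgeR and no replicate block. None of the 14 changed direction under any alternative run. The pairing of libraries by line thus decides the edgeR calls.

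In the order *Smad4* under TGFβ1, *Smad4* under SB505124, TGFβ1 in Smad4-on cells and TGFβ1 in Smad4-off cells, 3, 2, 6 and 3 collagens were called. The share of all tested genes called was counted for the fit behind these numbers only. Numbers from the alternatives below have no such background. With no replicate block the numbers were 0, 0, 0 and 0, and with DESeq2 and no replicate block 0, 0, 1 and 0. The test against the 2-fold threshold gave 0, 0, 3 and 1. At least 10 counts in every library left only *Col3a1*, *Col5a1*, *Col6a1* and *Col12a1* to be tested. These kept all their calls, which made 1, 0, 3 and 1. DESeq2 with the line called 1 for *Smad4* under SB505124, 1 in the interaction and 4 for the *Smad4* effect by line, against 2, 0 and 1. No filter on low counts called 5 for *Smad4* under TGFβ1 (adding *Col3a1* and *Col6a1*, adjusted p 0.00299 and 0.00801 in edgeR), 5 for TGFβ1 in Smad4-off cells, 2 in the interaction and 5 for the *Smad4* effect by line. Only the 4 libraries compared gave 0 for *Smad4* under SB505124 and 5 for TGFβ1 in Smad4-off cells. Between the lines, 3 collagens were called with at least 10 counts in every library (*Col5a1*, *Col6a1* and *Col12a1*). *Col3a1*, the other one left by that filter, was not called between the lines in either fit. With no filter on low counts *Col3a1* was called between the lines (1.12, adjusted p 0.0296 in edgeR). Beyond the 2-fold threshold 0 collagens differed in their *Smad4* effect. Leaving out a library gave 0 to 3, 0 to 2, 4 to 6 and 0 to 4 calls in the 4 comparisons, 0 to 1 in the interaction, 6 to 7 between the lines and 2 to 5 for the *Smad4* effect by line.

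Values that changed sign were all uncalled. Under SB505124 the *Smad4* log2 fold change of *Col6a1* became 0.38 and that of *Col12a1* 0.12 with no replicate block (0.38 and 0.11 with DESeq2 and no replicate block), and that of *Col1a2* became -0.26 in DESeq2 with the line. In Smad4-off cells the TGFβ1 effect on *Col1a2* became 0.023 with no replicate block (0.015 with DESeq2) and that on *Col6a3* 0.032 in DESeq2 with the line. With a library or line left out, ranges that crossed 0 were, for *Smad4* under SB505124, -0.95 to 0.48 (*Col12a1*), -1.05 to 0.45 (*Col1a2*), -0.56 to 1.01 (*Col5a1*), -0.88 to 0.62 (*Col6a1*) and -0.44 to 2.52 (*Col6a3*), for *Smad4* under TGFβ1 -0.10 to 3.26 (*Col6a3*), and for TGFβ1 -1.31 to 1.97 (*Col3a1*, Smad4 on), -4.70 to 0.16 (*Col1a2*) and -2.22 to 1.84 (*Col6a3*, both Smad4 off). The causes were not tested. Where a library is left out, the remaining one of its group is assumed to vary like the other groups. *Col1a2* and *Col6a3*, with at most 59 and 17 counts in a library, are limited by depth.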
